A study of Mus musculus with 7 samples.

Results

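The genes described here, listed with earlier results of these data known, are the EGF receptor family and its ligands, 4 receptor genes (Egfr, Erbb2, Erbb3 and Erbb4) and 6 ligand genes (Areg, Nrg1, Hbegf, Btc, Tgfa and Ereg). They were taken by gene symbol from the deposited expression table, and are 10 of its 56440 gene models. Where several models share a symbol, the one with the highest mean was used. RNA of basal cells, sorted from fresh mouse mammary tissue on day 2 of lactation, was sequenced in 4 Ctrl and 3 a3a6KO libraries, which the submitters call biological replicates. The submitters' labels mark the Ctrl animals Blg negative and the a3a6KO animals Blg positive. The genotype name stands for the integrin subunits α3 and α6, which form receptors for laminin. From general knowledge of this model and not from the labels, Blg denotes a Cre transgene under the beta-lactoglobulin promoter, which acts in luminal cells, so the basal cells profiled are neighbours of the targeted cells. The labels give neither the age of the animals nor whether animals were pooled, and they do not say which floxed alleles the controls carried. Blg and the integrin deletion were present together in every mutant, so their parts in any difference cannot be told apart.

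The 4 receptors are tyrosine kinases that signal as pairs. EGFR binds TGF-α, amphiregulin, HB-EGF, betacellulin and epiregulin. ERBB3 and ERBB4 bind neuregulins, ERBB2 binds no known ligand and serves as a partner of the others, and the kinase of ERBB3 is weak. The ligands are made as membrane-anchored precursors and are released by metalloproteinases, above all ADAM17. In the mammary gland, amphiregulin drives ductal growth at puberty, and neuregulin made by basal cells acts on ERBB3 and ERBB4 of the luminal layer, where ERBB4 supports milk production.

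The deposited values are normalised read counts, that is, counts per gene scaled by 1 factor for each library. They corresponded to between 9368418 and 21548279 reads per library, with a3a6KO replicates 3 and 2 the shallowest. The defining transcripts of basal cells were abundant in each library, with Krt5 at 23601 to 30453 and Acta2 at 460944 to 727845. All 11 basal markers looked up were measured. Luminal keratin Krt8 (7953 to 17769) and the casein Csn2 (44720 to 431668) were also present in every library. In bulk samples, fewer cells of a type and less RNA per cell cannot be told apart. Transcripts of endothelial cells were higher in the a3a6KO libraries, with a summed level over 10 markers of 4103 to 7026 in Ctrl and of 9091 to 12584 in a3a6KO. Of the 10, limma called 0, as it called 0 of all 16889 genes tested. DESeq2 called 7 of the 10, beside 0.555% of all genes. All 10 had an unadjusted limma p under 0.05, beside 6.32% of all genes. In 8 of the 10 the groups did not overlap, beside 7.51% of all genes.

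Egfr and Nrg1 were the most abundant members per length. Levels can be compared between genes only after division by length, here the merged exons of the GENCODE M21 annotation inside each deposited gene model. On this scale Egfr averaged 212 ± 43.2 (SD, n = 4) normalised reads per kb in Ctrl, and Nrg1 averaged 208 ± 63.3 (SD, n = 4). They did not differ beyond their spread, and their order turned with the length of the longest transcript, where Egfr had 139 and Nrg1 160 per kb. Below them came Hbegf at 75.4 ± 50.5, Tgfa at 59.8 ± 20.6, Erbb2 at 42.9 ± 8.72 and Ereg at 41.9 ± 25.3 (SD, n = 4 for each). In this order Tgfa lay within the spread of Hbegf, Erbb2 within that of Tgfa and Ereg within that of Erbb2. The mean of Tgfa lay outside the narrower spread of Erbb2. Erbb3 followed at 3.94 ± 3.03, and the lowest were Areg at 2.27 ± 2.72, Btc at 0.845 ± 1.03 and Erbb4 at 0.0626 ± 0.125 reads per kb (SD, n = 4 for each). The receptors thus ranged from Egfr, at the top, to Erbb4, with no read in 4 of the 7 libraries. A second feature named Erbb2, left aside by the rule of highest mean, had 139 per kb in Ctrl.

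**Figure D1:**
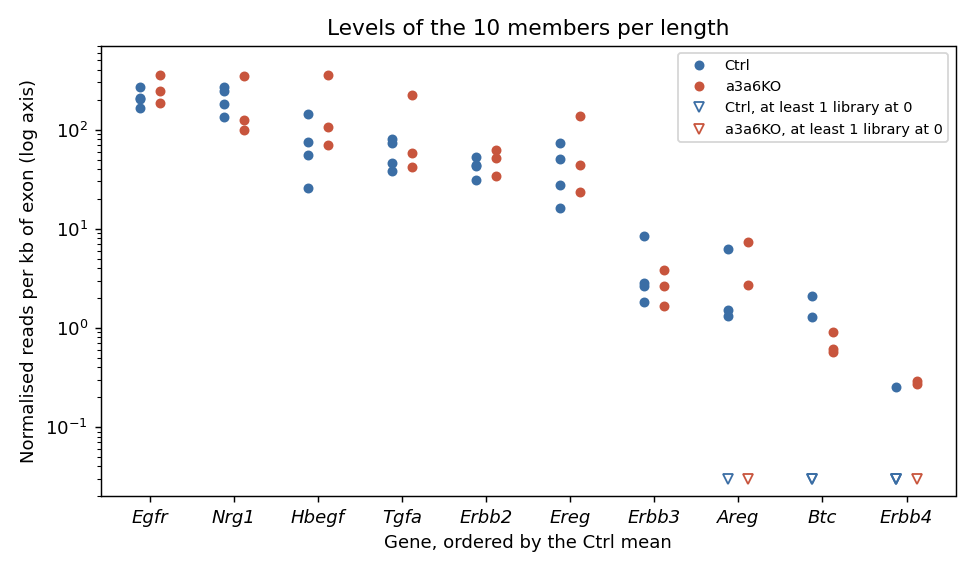
Normalised reads per kb of merged exon (log axis) of the 10 members, ordered by the Ctrl mean; each point is 1 library, blue for Ctrl and red for a3a6KO, and open triangles at the foot mark libraries with no read. Egfr (212 in Ctrl) and Nrg1 (208) lead, and Areg, Btc and Erbb4 have libraries at 0.

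Among the receptors, Egfr (identifier GSMG0004899, chromosome 11, 16752201 to 16913907, mm10) was read at 1102.5, 1394.5, 1382.7 and 1804.9 normalised counts in the Ctrl libraries (replicates 1 to 4, the order used throughout), against 1635.5, 1240.8 and 2394.8 in the a3a6KO libraries (replicates 1 to 3). The means were 1421 ± 289 (SD, n = 4) and 1757 ± 587 (SD, n = 3). The highest library was a3a6KO replicate 3 and the lowest Ctrl replicate 1, and the groups overlapped. Mutants exceeded controls by a log2 fold change, taken on log2(value + 1), of 0.28 (SE 0.24, 95% interval -0.26 to 0.81, limma adjusted p = 0.873). The deposited model of Egfr overlaps Egfros, a transcript of the opposite strand, with a mean of 241, and whether the counting used strand is not given in the sources used here.

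Erbb2 (GSMG0005881, chromosome 11, 98412484 to 98437716) encodes the partner receptor that binds no ligand. It had 263, 217, 157 and 219 in Ctrl, against 172, 310 and 262 in a3a6KO. Its highest library was a3a6KO replicate 2 and its lowest Ctrl replicate 3, so it did not follow the order of Egfr. Its log2 fold change was 0.19 (SE 0.25, 95% interval -0.37 to 0.75). A second feature named Erbb2 (GSMG0044493, chromosome 11, 98436924 to 98440136), which covers the 3′ end of the gene and overlaps Mien1, had a lower mean and was left aside by the rule of highest mean. Its values were 97.4, 96.95, 117 and 129 in Ctrl, against 94.5, 123 and 87.2 in a3a6KO, with the opposite sign of fold change, -0.12 (SE 0.21). Per kb of merged exon this second feature averaged 139 ± 19.5 (SD, n = 4) in Ctrl, against 42.9 for the model used. The rank of Erbb2 per length thus depends on the model. The Erbb2 model used overlaps Mien1 as well, a gene of the opposite strand with a mean of 430. The limit on strand given for Egfr thus holds for Erbb2 too.

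Erbb3 and Erbb4, the neuregulin receptors of the luminal layer, were low. Erbb3 (GSMG0004774, chromosome 10, 128567530 to 128589652) had 16.1, 16.97, 11.0 and 50.7 in Ctrl, against 9.94, 15.8 and 23.1 in a3a6KO. These values rest on 12 to 67 reads per library. Ctrl replicate 4 stood above the rest, and it was also the library with the highest summed milk protein transcripts, 1204181 against 124973 to 884760 in the other 6. Ctrl replicate 3, with the next highest sum of 884760, had the lowest Erbb3 of the controls (11.0). The part of luminal RNA in this value was not tested. The log2 fold change of Erbb3 was -0.35 (SE 0.55, 95% interval -1.59 to 0.90), and it was 0.090 without Ctrl replicate 4. Erbb4 (GSMG0001693, chromosome 1, 68032186 to 69108060) had 4 reads in all Ctrl libraries together (exact 95% Poisson interval 1.09 to 10.2) and 6 in a3a6KO (2.2 to 13.1). Such intervals cover counting error only. Even numbers made up 61.8% to 63.8% of small counts, so reads may not have been counted independently, and the intervals of Erbb4, Areg and Btc may then be too narrow. No difference in Erbb4 was detectable at this depth.

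Nrg1 was the most abundant per length of the 6 ligand members, and its order over the libraries differed from that of the EGFR ligands. Nrg2, a ligand outside the members, averaged 214 ± 224 (SD, n = 4) per kb in Ctrl. Nrg1 (GSMG0038251, chromosome 8, 31817756 to 32009493), which encodes neuregulin, had 1134.6, 1026.9, 553.6 and 754.2 in Ctrl, against 515.3, 414.0 and 1462.5 in a3a6KO. The deposited model covers only the part of the locus nearest the 3′ end, so transcripts from more distant starts are counted here only through the exons they share. Ctrl replicates 1 and 2 were high, a3a6KO replicates 1 and 2 were the lowest of all, and a3a6KO replicate 3 was the highest. The means were 867 ± 263 (SD, n = 4) and 797 ± 578 (SD, n = 3), with a log2 fold change of -0.30 (SE 0.42, 95% interval -1.25 to 0.65). Without a3a6KO replicate 3 the groups no longer overlapped and the log2 fold change was -0.85 (limma adjusted p = 0.743). Without a3a6KO replicate 2 the log2 fold change was 0.056.

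Hbegf had the largest fold change of the members. Hbegf (GSMG0018854, chromosome 18, 36504927 to 36515806), the gene of heparin-binding EGF-like growth factor, had 61.3, 132, 180 and 343 in Ctrl, against 254, 165 and 843 in a3a6KO. The means were 179 ± 120 (SD, n = 4) and 421 ± 369 (SD, n = 3). The lowest a3a6KO value lay below the values of Ctrl replicates 3 and 4, and a3a6KO replicate 3 exceeded the next library 2.46-fold. Between the groups the log2 fold change was 1.13 (SE 0.65, 95% interval -0.34 to 2.59, limma adjusted p = 0.797). It was 0.45 without a3a6KO replicate 3, the library with the highest value.

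Tgfa and Ereg, which encode TGF-α and epiregulin, had a similar order of libraries. Tgfa (GSMG0032151, chromosome 6, 86195223 to 86275743) had 174, 210, 331 and 367 in Ctrl, against 264, 190 and 1001.7 in a3a6KO. Ereg (GSMG0029412, chromosome 5, 91074617 to 91093649) had 67.3, 113, 208 and 303 in Ctrl, against 179.8, 97.6 and 569 in a3a6KO. For both genes a3a6KO replicate 3 was the highest library and Ctrl replicate 4 the next, while a3a6KO replicate 2 lay below the control mean. Their log2 fold changes were 0.51 (SE 0.53, 95% interval -0.68 to 1.71) for Tgfa and 0.54 (SE 0.64, -0.92 to 1.99) for Ereg. Without a3a6KO replicate 3 both signs turned, to -0.21 and -0.16.

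**Figure D2:**
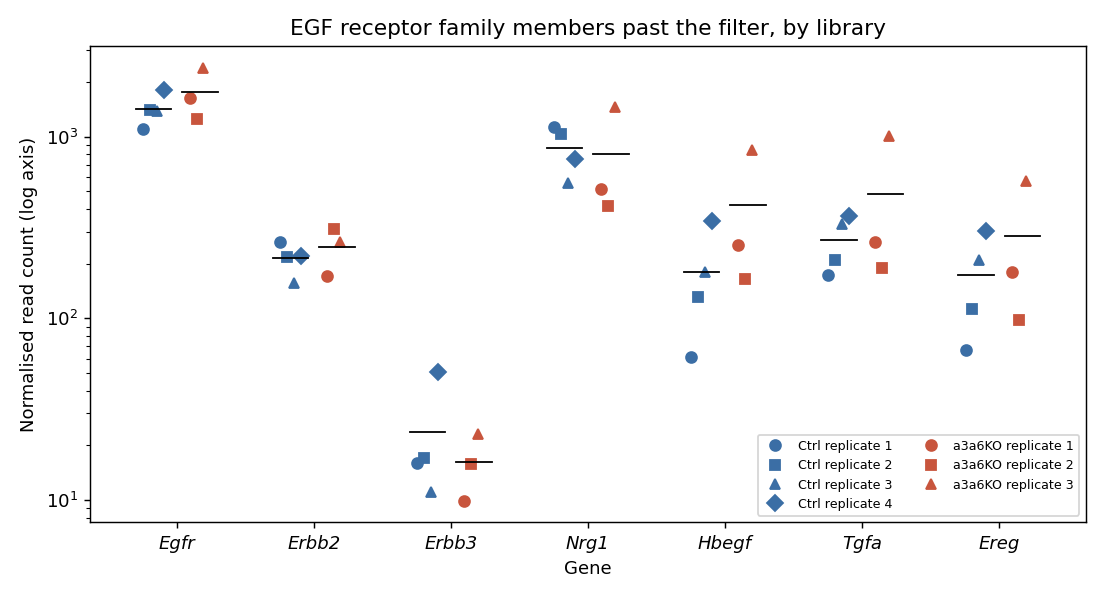
Normalised read counts (log axis) of the 7 members past the filter on low values; each symbol is 1 library, blue for Ctrl (n = 4) and red for a3a6KO (n = 3), and black lines are group means. The red triangle, a3a6KO replicate 3, is the highest point for Egfr (2394.8), Nrg1 (1462.5), Hbegf (843), Tgfa (1001.7) and Ereg (569).

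Areg and Btc were close to absent. Areg (GSMG0029413, chromosome 5, 91139599 to 91148432) had 14 reads in the 4 Ctrl libraries (exact 95% Poisson interval 7.65 to 23.5) and 9 in the 3 a3a6KO libraries (4.12 to 17.1). Ctrl replicate 4 held 10 of the Ctrl reads, and 2 libraries had none. Btc (GSMG0030723, chromosome 5, 91357261 to 91402995), the gene of betacellulin, had 12 reads in Ctrl (6.2 to 21.0) and 5 in a3a6KO (1.62 to 11.7). Ereg, Areg and Btc lie close together on chromosome 5, and among these neighbours only Ereg passed the filter.

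The sequences upstream of Egfr and Tgfa, which were high together, and of Areg, which was nearly silent, are shown for comparison. RefSeq promoter entries (GRCm38.p6) matched 6 of the 10 members. Each line gives the 250 bases before the annotated start, read 5′ to 3′ on the plus strand, and capitals mark every match on either strand to the AP-1 motif TGANTCA, the cyclic AMP response element TGACGTCA, the TATA box TATAAA or the GC box GGGCGG. The windows are chr11:16751953-16752202 for Egfr, chr6:86194972-86195221 for Tgfa and chr5:91139349-91139598 for Areg.
Egfr: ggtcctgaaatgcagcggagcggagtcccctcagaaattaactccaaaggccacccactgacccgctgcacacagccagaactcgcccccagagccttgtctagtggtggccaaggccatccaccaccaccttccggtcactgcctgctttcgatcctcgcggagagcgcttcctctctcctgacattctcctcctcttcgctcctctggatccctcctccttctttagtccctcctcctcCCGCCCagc
Tgfa: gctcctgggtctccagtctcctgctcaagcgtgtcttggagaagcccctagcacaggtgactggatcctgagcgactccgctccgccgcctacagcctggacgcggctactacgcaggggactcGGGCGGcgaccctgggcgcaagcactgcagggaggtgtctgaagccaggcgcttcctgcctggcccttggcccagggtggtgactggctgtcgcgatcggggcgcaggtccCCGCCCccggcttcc
Areg: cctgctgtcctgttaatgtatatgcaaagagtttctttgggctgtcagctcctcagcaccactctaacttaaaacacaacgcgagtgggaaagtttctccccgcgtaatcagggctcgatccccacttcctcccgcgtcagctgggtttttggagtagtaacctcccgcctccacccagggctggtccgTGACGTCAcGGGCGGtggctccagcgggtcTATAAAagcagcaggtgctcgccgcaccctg

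The capitals in Egfr and Tgfa are GC boxes, 1 match and 2 matches, and no window of a matched member holds an AP-1 motif. In Areg they are a cyclic AMP response element that begins 61 bases before the start, a GC box at 52 and a TATA box at 31, with no overlap between matches. Of 32851 windows of this length, 32.7% hold a GC box, 12.4% a TATA box, 6.75% an AP-1 motif and 1.55% a cyclic AMP response element. The windows of Erbb2, Erbb4 and Btc, matched but not shown, hold none of these motifs. Erbb2 passed the filter on low values and Erbb4 and Btc did not, so the matches did not sort the members by level. A match describes letters and not a bound site.

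No member passed the test between the groups. The filter on low values, which asks for 10 or more in 3 or more libraries, kept 7 of the 10 members and left out Erbb4, Areg and Btc. Of the 7, limma called 0 at an adjusted p under 0.05, as it called 0 of all 16889 genes tested (0%). At an unadjusted p under 0.05 there were 0 of 7 members and 1068 genes over the whole table (6.32%). The groups overlapped for all 7 members, whereas they did not overlap in 7.51% of genes tested. DESeq2 called 73 of the 13164 genes it gave an adjusted p (0.555%), none of them a member and with no adjusted p given for Erbb3, and edgeR called 0 of 17228, with 1031 at an unadjusted p under 0.05. Over the 7 members the exact two-sided permutation p ran from 0.286 to 0.657, where the smallest that the design allows is 0.0286. The median log2 fold change of the 7 was 0.28, beside -0.0040 over all genes tested, with 5 above 0. The intervals are wide. Those of Hbegf, Tgfa and Ereg reach above 1.5 on the log2 scale, and that of Erbb3 reaches down to -1.59. These values therefore do not show that the groups were alike.

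**Figure D3:**
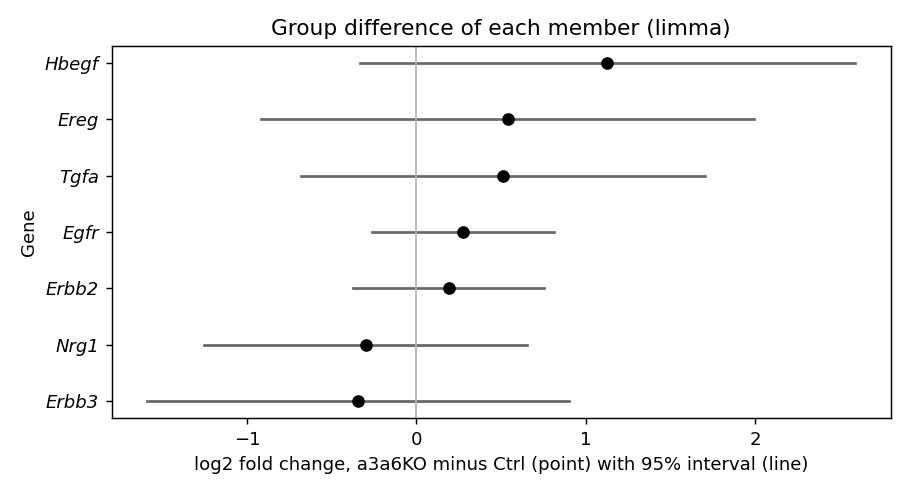
The log2 fold change of each of the 7 members, a3a6KO minus Ctrl (points), with its 95% interval from limma (lines). Every interval crosses 0, and that of Hbegf is the widest of the 7, from -0.34 to 2.59.

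Egfr varied together across the libraries with Hbegf, Tgfa and Ereg. All 15 pairs among the 6 members with a mean of at least 50 were compared over the 7 libraries on the log2(value + 1) scale. This comparison was not planned. The 6 pairs among Egfr, Hbegf, Tgfa and Ereg had Pearson's r from 0.912 to 0.967, and each had a Benjamini-Hochberg adjusted p under the threshold of 0.05 by exact permutation. The share of all gene pairs with r this high was not computed, so the relation is not shown to be particular to these genes. Tgfa and Ereg had r = 0.954 (exact permutation p = 0.000198, adjusted p = 0.00297 over 15 pairs). Their libraries stood in the same order throughout, with Spearman's rho = 1 (exact permutation p = 0.000397, adjusted p = 0.00596). Egfr and Hbegf had r = 0.967 (exact permutation p = 0.000794, adjusted 0.00521) and rho = 0.893 (p = 0.0123, adjusted 0.0307). After the 2 libraries farthest from the median of the first gene were left out, r over the other 5 was 0.981 for Tgfa and Ereg, 0.874 for Egfr and Hbegf, 0.83 for Egfr and Ereg, 0.838 for Hbegf and Ereg, 0.731 for Hbegf and Tgfa and 0.678 for Egfr and Tgfa.

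The relation leaned on a3a6KO replicate 3. Without it the 6 values of r ran from 0.804 to 0.979 over 6 libraries, and 1 of the 6 pairs passed. None of the 9 pairs with Erbb2 or Nrg1 passed (exact permutation, adjusted p from 0.684 to 0.926 for r). Nrg1 had r = 0.175 with Hbegf (rho = 0.0714, exact permutation p = 0.72 and 0.906), 0.453 with Tgfa (rho = 0.25, p = 0.319 and 0.595) and 0.269 with Ereg (rho = 0.25, p = 0.554 and 0.595). Without a3a6KO replicates 2 and 3 these became -0.706, -0.705 and -0.71 over 5 libraries, so the sign of the Nrg1 relation rested on those libraries. Values of 1 library share a size factor, and a3a6KO replicates 3 and 2, the highest and the next to lowest library for Tgfa and Ereg, were both shallow, with 9368418 and 10861835 reads.

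**Figure D4:**
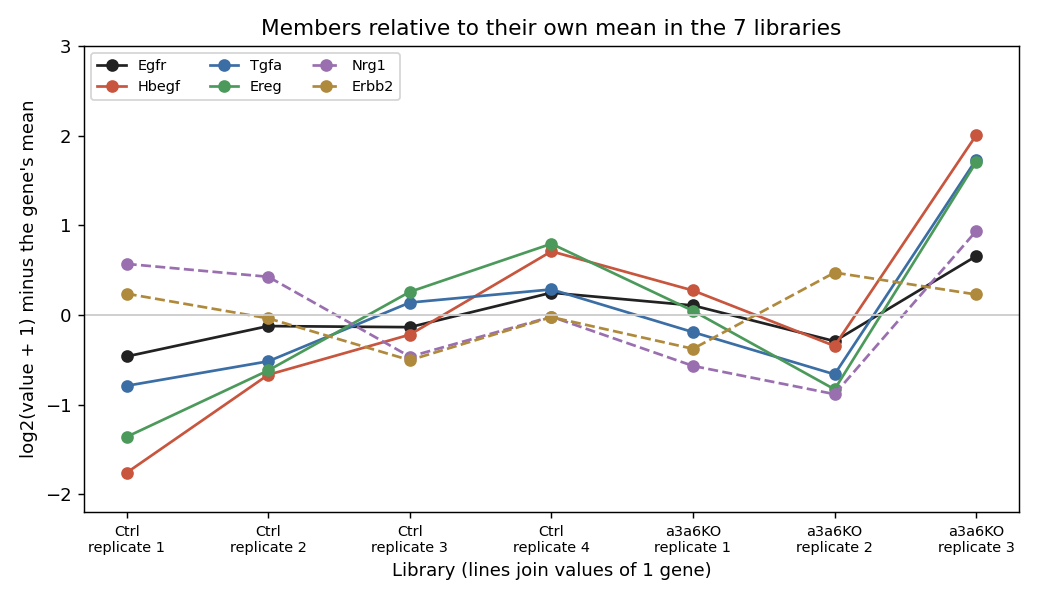
Log2(value + 1) of 6 members minus each gene's mean (y axis) in the 7 libraries (x axis, which has no order within a group); lines join the values of 1 gene, solid for Egfr, Hbegf, Tgfa and Ereg and dashed for Nrg1 and Erbb2. The solid lines move together (r from 0.912 to 0.967) and peak in a3a6KO replicate 3, while Nrg1 is above its mean in Ctrl replicates 1 and 2.

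In a3a6KO replicate 3, 5 of the 7 members had their highest value, as did 21.7% of all genes tested. The genes most like the 3 most variable members over the 7 libraries were sought by the root mean square difference of their centred log2(value + 1) values, among 10404 genes with a mean of at least 50. For Hbegf they were Gprc5a (difference 0.108), the tubulin Tubb6 (0.246) and the nuclear receptor Nr4a2 (0.277). For Ereg they were F3, the gene of tissue factor (0.0906), the transcription factor Klf5 (0.178) and Smim3 (0.193). For Tgfa they were the cell cycle inhibitor Cdkn1a (0.171), the transcription factor Bach1 (0.184) and the chromatin protein Hmga1 (0.185). F3 had 123, 189, 383 and 501 in Ctrl, against 299, 189 and 1094 in a3a6KO, the same high and low libraries as Ereg. These genes were picked for their likeness, so it has no test.

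The other ligands of the family showed no common pattern. Nrg2, a further neuregulin, had 256, 260, 1541 and 348 in Ctrl, against 401, 65.9 and 21.4 in a3a6KO, and its log2 fold change was -2.37 with an SE of 0.94 (limma adjusted p = 0.740). Ctrl replicate 3 was far above the others, and a3a6KO replicate 1 lay above 3 of the 4 controls, so the groups overlapped. Epgn, the gene of epigen and a neighbour of Ereg, had 22.1, 26.7, 44.1 and 31.0 in Ctrl, against 50.5, 21.1 and 142 in a3a6KO (log2 fold change 0.82, SE 0.57), again highest in a3a6KO replicate 3. Egf itself, named here after its values were seen, had 62.3, 50.9, 140 and 167 in Ctrl, against 39.8, 65.9 and 110 in a3a6KO. Its 3 highest libraries were also the 3 with the most milk protein transcripts, with sums of 884760 (Ctrl replicate 3), 1204181 (Ctrl replicate 4) and 515588 (a3a6KO replicate 3). The part of luminal RNA in the Egf values was not tested. Nrg3 and Nrg4 did not pass the filter.

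None of 11 genes of ligand release, sheddases with their regulators and the inhibitor Timp3, was called by limma, and 0 had an unadjusted p under 0.05. Their median log2 fold change was 0.18, and 10 of 11 were above 0, beside 49.5% of all genes tested. In a3a6KO replicate 3, 8 of the 11 had their highest value, beside 21.7% of all genes. Adam12, a metalloproteinase that can shed HB-EGF, had 1.01 (SE 0.48) and Rhbdf1, a partner of ADAM17, had 0.31 (SE 0.14). Rhbdf1 had 1163, 1036, 985 and 1344 in Ctrl, against 1324, 1353 and 1511 in a3a6KO, so 1 control lay within the range of the mutants. Timp3, the inhibitor of ADAM17, was the most abundant of the list, at 18895 to 26146 in Ctrl and 21594 to 28572 in a3a6KO.

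Downstream of the receptors each list held genes above 0 and genes below 0. Of 12 adaptors 7 were above 0 and 5 below, with a median log2 fold change of 0.053. Crkl, an SH2 adaptor, had 1268, 1482, 1250 and 1427 in Ctrl, against 1559, 1599 and 1614 in a3a6KO (0.23, SE 0.12), and the exchange factor Sos2 had -0.52 (SE 0.41). The adaptor Crk was the highest of them, at 3534 to 5471 in Ctrl and 4028 to 6067 in a3a6KO. Of 13 genes of the RAS-ERK cascade 8 were above 0, with a median of 0.10, where the kinase Map2k2 had 0.26 (SE 0.12), the kinase Braf -0.35 (SE 0.20), and Hras was highest at 2247 to 3590. The summed level of the cascade was 12960 to 14516 in Ctrl and 15059.5 to 15274.5 in a3a6KO, so each mutant library lay above every control. Such a sum is weighted to abundant genes, here Hras (means 2463.5 in Ctrl and 2974 in a3a6KO) and Map2k2 (2114 and 2528). The sums of all other pathway lists overlapped between the groups. These sums were not tested. For Crkl and Map2k2 the groups did not overlap, and limma called neither. Of 11 genes of the PI3K-AKT arm 5 were above 0, with a median of -0.050, where the kinase Pdpk1 had -0.20 (SE 0.14) and the regulatory subunit Pik3r1 was highest at 4760 to 7097.

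Inhibitors of the pathway had a median log2 fold change of -0.044, with 8 of 20 above 0 and 0 called by limma. The phosphatase Ptpn1 had 1236, 1190, 1304 and 1216 in Ctrl, against 1419, 1358 and 1890 in a3a6KO (0.32, SE 0.14). Usp8, a deubiquitinase that acts on receptors in endosomes, had 906, 914, 871 and 968 in Ctrl, against 776, 700.2 and 836 in a3a6KO (-0.25, SE 0.12). In both genes the groups did not overlap, and limma called neither. Errfi1, an inhibitor that binds the EGFR kinase and is induced by its signalling, was the most abundant, with 17192, 20576, 35473 and 28430 in Ctrl, against 43622, 14175 and 53483 in a3a6KO. Its extremes were the 2 a3a6KO replicates 3 and 2, which were also far apart for Hbegf, Tgfa and Ereg.

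Among the targets of ERK signalling, Etv5 and Etv4 were lower in a3a6KO without passing limma. Etv5, an ETS transcription factor, had 1045, 851, 488 and 461 in Ctrl, against 341, 299 and 276 in a3a6KO, so each mutant library lay below each control. For Etv5 the log2 fold change was -1.13 (SE 0.29, limma adjusted p = 0.551), and Etv5 was the 1 gene of these lists that DESeq2 called (-1.22, adjusted p = 0.0218), where it called 0.555% of all genes. In data simulated with no gene changed, DESeq2 made 16 false calls and limma 0. These counts were drawn independently for each gene and library, so they do not show whether the call of Etv5 is false. Etv4 had 49.2, 37.2, 17.4 and 25.0 in Ctrl, against 23.2, 11.9 and 7.12 in a3a6KO (-1.18, SE 0.50), with overlap of the groups. The immediate-early gene Fos was the highest of the list, at 126460 to 225801 in Ctrl and 131090 to 219892 in a3a6KO. Of the 19 targets tested, 9 were highest in a3a6KO replicate 3. Fos and Ier2 were lowest in Ctrl replicate 4, the next to highest library for Hbegf, Tgfa and Ereg, and Etv5 was lowest in a3a6KO replicate 3. Fosl1 and Plaur, named after their values were seen, were highest in a3a6KO replicate 3 and lowest in Ctrl replicate 1, with Fosl1 at 45.2, 141, 311 and 734 in Ctrl, against 350, 128 and 2530 in a3a6KO, and Plaur at 134, 242, 441 and 819 in Ctrl, against 411, 411 and 2724 in a3a6KO. Over the 19 targets tested the median log2 fold change was 0.059, with 11 above 0. Across the 7 lists 89 of 92 genes were tested, 0 were called by limma, 3 had an unadjusted p under 0.05, and the groups did not overlap in 6, beside the 7.51% of all genes tested.

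**Figure D5:**
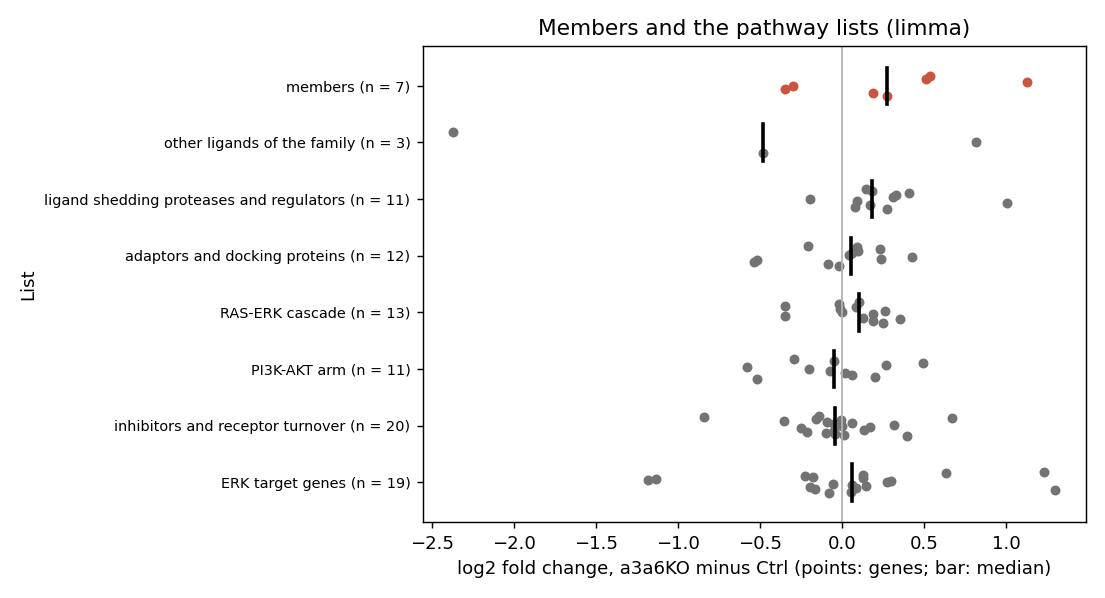
The log2 fold change (a3a6KO minus Ctrl, x axis) of the 7 members tested, in red, and of the genes of 7 pathway lists, in grey; each point is 1 gene, its height within a row has no meaning, and bars are medians. The medians of the lists of adaptors, RAS-ERK and PI3K-AKT genes, inhibitors and ERK targets lie between -0.050 and 0.10, and Nrg2 (-2.37) is the lowest point.

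Some markers of other cell types had the library order of the EGFR ligands, and others did not. Of the 16 luminal markers, Cd24a had exactly the order of Tgfa and Ereg, at 2015, 3680, 5887 and 7376 in Ctrl, against 3787, 2201 and 12001 in a3a6KO. Epcam, a surface protein of epithelial cells, was close to it, at 692, 747, 1586 and 2512 in Ctrl, against 983, 802 and 3532 in a3a6KO. The claudin Cldn4 was lowest in Ctrl replicate 1 (23.1) as well, and highest in Ctrl replicate 4 (1269). The mean log2 level of the luminal markers was 8.35, 8.25, 9.26 and 9.64 in Ctrl, against 8.67, 8.69 and 9.37 in a3a6KO, so Ctrl replicates 1 and 2 were lowest. The sum of the luminal markers, which the keratins Krt8 and Krt19 dominate, was 39046 in Ctrl replicate 1, 42103 in Ctrl replicate 4 and 42436 in a3a6KO replicate 3. In all, 2 of the 16 luminal markers were highest in a3a6KO replicate 3, beside 21.7% of all genes tested.

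Among 10 immune markers 4 passed the filter, and Ms4a1 was at 0 in every library. Cd68, a marker of macrophages, again had the order of Tgfa and Ereg, at 23.1, 41.2, 78.0 and 85.5 in Ctrl, against 41.4, 39.6 and 206 in a3a6KO. Of the 4 immune markers past the filter, 2 were highest in a3a6KO replicate 3. The summed immune markers did not have this order, at 210.9, 301, 900 and 725.5 in Ctrl, against 377, 490.5 and 858 in a3a6KO. The summed endothelial markers were 9091, 11485 and 12584 in a3a6KO, each above every control. In a3a6KO replicate 3, 6 of 10 endothelial, 3 of 7 fibroblast, 2 of 11 basal and 2 of 7 pericyte markers were highest. So were 1 of 5 adipocyte, 0 of 7 milk and 0 of 2 Schwann cell markers tested. The single markers given here were named after their values were seen. The part of these cells in the values of the members was not tested.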

How the data were processed

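RNA of FACS-sorted mammary basal cells was sequenced from SMARTer v4 libraries, per the labels' protocols. The deposited signal values are counts per gene scaled by 1 factor for each library: the authors titled the table as normalized with DESeq2. The submitters' processing notes name DESeq2, STAR 2.4.0, FastQC, Picard, SAMtools and build mm10. How reads were counted, and whether by strand, is not given in the sources used here. Whole reads were recovered for 100% of values (within 0.01 of a read). Even numbers made up 61.8% to 63.8% of counts from 1 to 20, and no molecular identifiers are named.

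Samples were grouped by genotype label, and replicate numbers only name libraries. Limma 3.58.1 (R 4.3.3, empirical Bayes trend) was fitted across all genes that reached 10 in 3 or more libraries, on log2(value + 1), which understates changes of low genes. P-values are two-sided with Benjamini-Hochberg adjustment over all genes and a threshold of 0.05. EdgeR 4.0.16 and DESeq2 1.42.0 on recovered reads, other pseudocounts (0.5 and 10), filters, scalings, library weights, a luminal covariate and leaving out each library were alternatives. Where several features share a symbol, that with the highest mean was used. From each pathway list the text names the 2 genes with the smallest p and the most abundant, and by likeness the 3 genes nearest to the 3 most variable members. The values of 1 gene that this rule names are not reported here. Members and lists were chosen with earlier results of these data known. Scripts were tested on simulated data; in counts drawn for this comparison over 16889 genes with 200 changed, limma recovered 78% of genes changed 4-fold and 26% of those changed 2-fold, with 6 false calls, and DESeq2 84% and 51%, with 36. Protein sequences were not used here.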

Additional observations from a re-analysis of the deposited data

Results flagged for a closer look

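Of 27 genes examined (7 members and 20 genes of the pathway lists), 2 had a Ctrl library far from the other 3, where chance gives about 1 in 20 groups of 4. Erbb3 had 50.7 in Ctrl replicate 4, against 11.0 to 16.97 in the other controls. Nrg2 had 1541 in Ctrl replicate 3, against 256 to 348 in the others.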

How the results depend on the processing

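No paired analysis was possible because the labels give no replicate numbers shared between the groups. Under the 17 alternatives limma, edgeR and DESeq2 called no member, with adjusted p from 0.487 to 0.995 where one was given (DESeq2 gave none for Erbb3). Of 118 recomputed fold changes 4 changed sign. Those were Erbb3 without Ctrl replicate 4 (0.090), Nrg1 without a3a6KO replicate 2 (0.056), and Tgfa (-0.21) and Ereg (-0.16) without a3a6KO replicate 3. The cause was not tested. Leaving out 1 library gave log2 fold changes of -0.62 to 0.090 for Erbb3, -0.85 to 0.056 for Nrg1, -0.21 to 0.99 for Tgfa, -0.16 to 1.11 for Ereg, 0.45 to 1.62 for Hbegf, 0.025 to 0.50 for Egfr and 0.0078 to 0.43 for Erbb2. The number of genes past the threshold was 0 in each limma and edgeR alternative and 73 with DESeq2, and of the pathway genes 0 and 1 (Etv5). Leaving out 1 library gave 0 to 1 members without overlap of the groups, the 1 being Nrg1 without a3a6KO replicate 3. Of the 15 pairs of members, 6 passed, and 1 (without a3a6KO replicate 3) to 7 (without a3a6KO replicate 2) when 1 library was left out. The comparison of pairs was itself not planned, and these alternatives were added after the data were seen. Depth limits Erbb4, Areg and Btc, which have 14 reads or fewer in either group.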
